A study of Mus musculus with 66 samples.

Results

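The let-7 family was followed in mouse plasma through the 5p strands of its 9 members, let-7a, let-7b, let-7c, let-7d, let-7e, let-7f, let-7g, let-7i and miR-98. The members were taken by name from a list, and all 9 were found among the 1826 miRNAs of the table for C3H mice and among the 1885 miRNAs of the table for F2 mice. Small RNA was sequenced from cell-free plasma from libraries that tag each cDNA molecule, and the values are counts of unique molecular indices (UMIs), that is, of tagged molecules. The first cohort held 13 male C3H mice, an inbred strain prone to liver tumors, bled by cardiac puncture at necropsy. Of these, 8 had hepatocellular carcinoma (HCC) and 5 did not (non-HCC). The labels give the time of bleeding as more than 12 months after radiation, although the methods describe some of the tumors as spontaneous. Of the 8 HCC mice, 5 had spontaneous tumors and the rest radiation-induced ones according to the methods, but no label says which, so they form 1 group. The methods give no radiation status for the non-HCC mice, so the part of radiation in a group difference was not tested. The second cohort held 53 tail vein samples, from 15 irradiated mice of both sexes, taken at months 1, 6, 12 and 18 after radiation. All 15 mice were later found to carry HCC, and the labels date each sample by its days before tumor detection. Each sample thus came before its tumor was found. These F2 mice are the second generation from BALB/c females and C3H males, and the names of their 53 columns could not be tied to a mouse or a month.

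let-7 was first described as a regulator of developmental timing in worms, and its mature sequence is nearly the same in animals from worms to mammals. A miRNA pairs with messenger RNAs mainly through its seed, so that members with one seed are expected to share many targets, and known let-7 targets include the Ras genes, Hmga2 and Myc. The RNA-binding proteins LIN28A and LIN28B block the maturation of many let-7 precursors, and in the adult, differentiated tissues and blood cells carry abundant let-7.

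The 9 mature sequences are shown because the seed defines the family and because the bases outside it are all that separates the members in sequencing. They are from RefSeq on GRCm38.p6, 5′ to 3′, with the seed (bases 2 to 8) in capitals and with the prefix mmu for mouse, which is dropped in the rest of the text:
mmu-let-7a-5p: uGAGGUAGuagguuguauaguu
mmu-let-7b-5p: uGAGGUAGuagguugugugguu
mmu-let-7c-5p: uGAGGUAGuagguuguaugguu
mmu-let-7d-5p: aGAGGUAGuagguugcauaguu
mmu-let-7e-5p: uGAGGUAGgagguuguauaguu
mmu-let-7f-5p: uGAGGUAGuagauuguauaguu
mmu-let-7g-5p: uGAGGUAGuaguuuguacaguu
mmu-let-7i-5p: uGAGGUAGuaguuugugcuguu
mmu-miR-98-5p: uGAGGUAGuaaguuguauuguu

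All 9 had 22 bases and the same seed. Counted from 1 at the 5′ end and with let-7a-5p as the reference, let-7c-5p differed by A19G, let-7e-5p by U9G and let-7f-5p by G12A. let-7b-5p differed by A17G and A19G, and let-7d-5p by U1A and U16C. let-7i-5p was the farthest from let-7a-5p, with G12U, A17G, U18C and A19U. let-7b-5p and let-7c-5p differed from each other only by G17A. Of the 36 pairs of members, 4 were 1 base apart, so a single sequencing error can move a molecule from one of these members to the other, and the size of such exchange was not tested.

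The family is encoded by 12 hairpin genes (GRCm38, RefSeq, with overlapping genes from GENCODE M21). Mirlet7a-1 (chr13:48538179-48538272), Mirlet7f-1 (chr13:48537829-48537917) and Mirlet7d (chr13:48536012-48536114) lie side by side on the minus strand in an exon of the lincRNA 6720427I07Rik. Mirlet7c-2 (chr15:85706603-85706697) and Mirlet7b (chr15:85707319-85707403) share an exon of Lncppara, a noncoding transcript. Mirlet7f-2 (chrX:151912346-151912428) and Mir98 (chrX:151913214-151913321) share an intron of Huwe1, a ubiquitin ligase gene. Mirlet7c-1 (chr16:77599657-77599750) lies in an intron of Mir99ahg and Mirlet7a-2 (chr9:41536716-41536811) in an intron of 3110039I08Rik. Mirlet7e (chr17:17830352-17830444) lies in an intron of Spaca6, Mirlet7g (chr9:106178840-106178927) in an intron of Wdr82, and Mirlet7i (chr10:122985640-122985724) in an exon of the pseudogene transcript D630033A02Rik. let-7a-5p, let-7c-5p and let-7f-5p each come from 2 hairpins, and their UMIs cannot be assigned to either copy.

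Between 9513136 and 14247488 miRNA UMIs were counted per C3H mouse. No value between 1 and 9 occurs in the tables, so that an entry of 0 stands for fewer than 10 UMIs, and no member was listed at 0 in any library of either cohort. Levels were put on the scale of 2 synthetic spike-ins added before RNA isolation, as log2 of the UMI count plus 1 over the relative mean of UniSP2 and UniSP4. The mean spike-in count ran from 83039 to 469953 UMIs in HCC mice, against 182485 to 366298 in non-HCC mice, nearly all of it UniSP2. Among the HCC libraries, mice 1 and 6, mice 2 and 5, and mice 3 and 7 were close to each other, with r of 0.995 to 0.999 on log2 UMIs against 0.780 to 0.947 for the other 25 HCC pairs. The 10 non-HCC pairs had r of 0.953 to 0.991. Counts within the 3 close HCC pairs differed by more than sampling noise, with a chi-square per degree of freedom of 68.9 to 149.8. It was 213.1 to 2544.8 in non-HCC pairs. None of the 3 is thus 1 library deposited again, but this does not tell separate mice from repeated libraries of the same plasma. These libraries were counted as the separate mice the labels name, and the results were also computed with the 3 pairs summed.

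let-7i-5p was the most abundant member in all 13 C3H mice, with 103616 to 805828 UMIs, and ranked 5th of all 1826 miRNAs by its median. let-7b-5p ranked 12th and let-7c-5p 13th, and these neighbours could not be put in order, since let-7b-5p exceeded let-7c-5p in 7 of 13 mice. let-7a-5p (39794 to 146486 UMIs), let-7g-5p (26267 to 154403) and let-7d-5p (25677 to 102794) followed with overlapping ranges. let-7g-5p exceeded let-7d-5p in 10 of 13 mice, and let-7d-5p exceeded let-7f-5p in 11 of 13. Far below these, miR-98-5p had 818 to 6132 UMIs and let-7e-5p 826 to 2521, and miR-98-5p was the higher of these in 11 of 13 mice. All members have the same length, so their counts can be set side by side, but whether the library protocol captures each sequence equally was not tested.

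On the spike-in scale the members did not separate HCC from non-HCC mice. The log2 level of let-7i-5p in HCC mice had a lowest value of 16.45, a median of 17.62 and a highest value of 19.93, and non-HCC mice 1 to 5 had 17.85, 18.96, 17.97, 18.62 and 20.01. For let-7b-5p the HCC mice ran from 15.88 over a median of 16.57 to 19.03, and the non-HCC mice had 17.07, 17.31, 17.26, 17.64 and 18.40. The groups overlapped in both members. HCC mice 2 and 5 lay near or above the top of the non-HCC range, HCC mouse 4 lay within it, and the other 5 lay below it. let-7c-5p, encoded in part beside let-7b, had a lowest HCC level of 15.29, a median of 16.05 and a highest of 19.09, against 17.03, 17.76, 17.44, 17.68 and 18.47 in non-HCC mice. In let-7c-5p, 5 of the 8 HCC mice lay below all non-HCC mice and 2 above all of them. HCC mice 2 and 5 also had the lowest mean spike-in counts of the group, with 87617 and 83039 UMIs, and the part of the spike-in count in their levels was not tested.

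**Figure D1:**
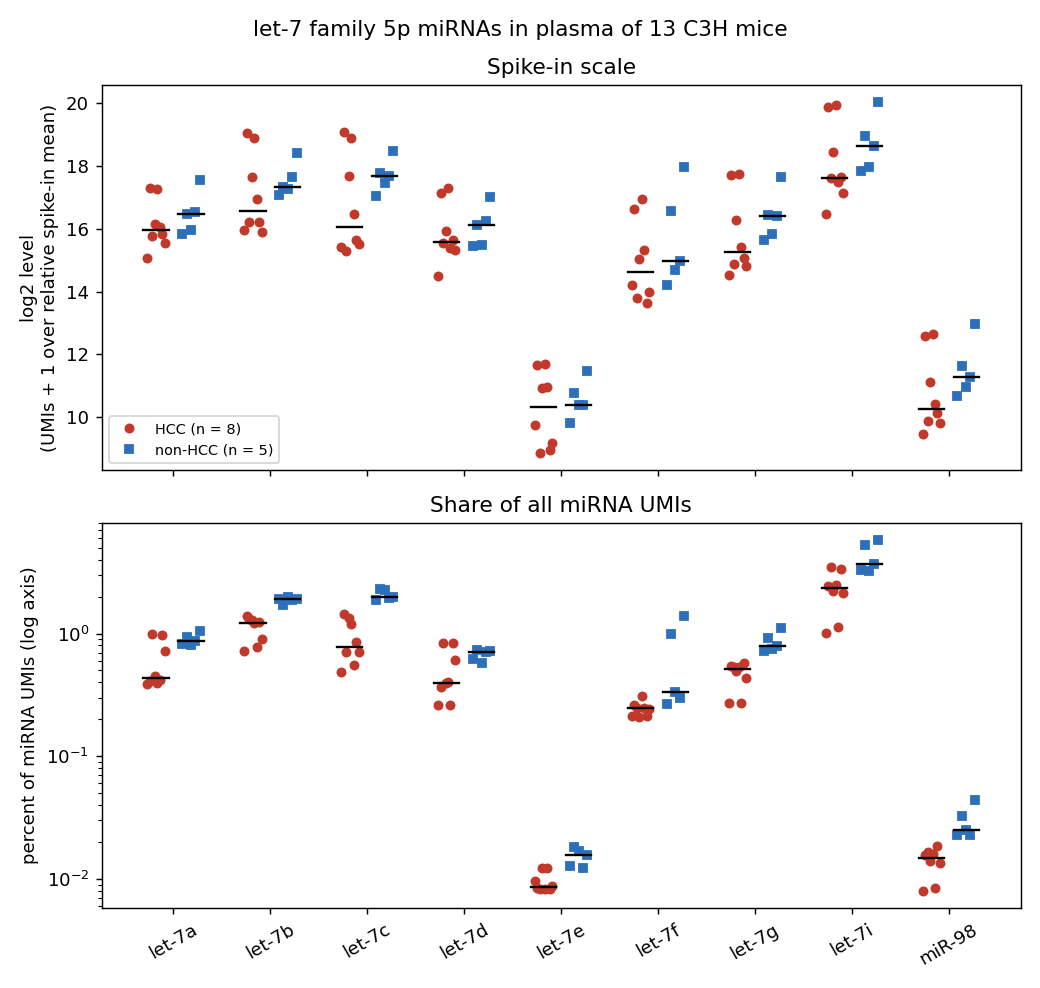
Log2 level on the spike-in scale (top) and percent of all miRNA UMIs on a log axis (bottom) of the 9 members in 8 HCC mice (circles) and 5 non-HCC mice (squares), with 1 point for each mouse and a line at the group median. On the spike-in scale the groups overlap in each member, and in percent of miRNA UMIs the HCC mice lie below the non-HCC mice without overlap in 5 of the 9 members.

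Groups were compared with edgeR's quasi-likelihood test on the counts, with the spike-in mean as the library scale. Of the 9 members, 0 were higher and 0 were lower in HCC mice at a Benjamini-Hochberg adjusted p of 0.05 over all 1452 miRNAs tested. Over all 1452 miRNAs, 7.51% were called higher and 0% lower, and none of the 9 had an unadjusted p under 0.05. DESeq2 with spike-in size factors and limma also called 0 members. The log2 fold changes of the members, HCC over non-HCC, lay between -0.92 for let-7f-5p and 0.01 for let-7b-5p, with a median of -0.22 beside a median of 0.78 over all miRNAs tested. For let-7f-5p the standard error was 0.71 and the edgeR adjusted p 0.587, and for let-7b-5p they were 0.63 and 0.995. Standard errors of the 9 members were between 0.55 and 0.71, so a change well above 1 on the log2 scale could also be missed here. In the same fit miR-99a-5p, with a log2 fold change of 2.02 (SE 0.76), was not called (edgeR adjusted p = 0.118). Each of the 9 lay below the median of all miRNAs tested, in this fit and in each of the other fits run. The direction itself rests on non-HCC mouse 5, since without it all 9 fold changes were above 0 on the spike-in scale, between 0.03 for let-7c-5p and 0.30 for let-7b-5p.

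As a share of all miRNA UMIs the family was lower in HCC mice. The 9 members summed to 3.38% of the miRNA UMIs in HCC mouse 1 and to 8.15% in HCC mouse 3, with a median of 6.49% over the 8 HCC mice. Non-HCC mice 1 to 5 had 9.59%, 13.0%, 10.0%, 10.3% and 14.0%. Every HCC mouse thus lay below every non-HCC mouse, with means of 6.12% ± 1.79 (SD, n = 8) and 11.4% ± 1.98 (SD, n = 5). On the spike-in scale the family sum overlapped, with 19.54 ± 1.22 (SD, n = 8) against 20.12 ± 0.74 (SD, n = 5) as log2 levels, a difference of -0.58 that was smaller than either SD. HCC mice 2 and 5, with 21.35 and 21.33, then held the highest family levels of all 13 mice.

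A share of all miRNA UMIs falls when another miRNA takes up more of the library. miR-122-5p, the dominant miRNA of hepatocytes, made up 2.20% to 42.7% of the miRNA UMIs in HCC mice, with a median of 23.05%, and 0.180% to 0.424% in non-HCC mice. The HCC mice with most miR-122-5p, mouse 6 with 42.7% and mouse 1 with 40.98%, had the lowest family shares, 3.68% and 3.38%. The HCC mice with least miR-122-5p, mouse 3 with 2.20% and mouse 7 with 2.39%, had the highest, 8.15% and 8.11%, and still lay below all non-HCC mice. With both arms of miR-122 taken out of the total, the family made up 5.73% to 9.71% in HCC mice, against 9.61% to 14.0% in non-HCC mice, and 7 of the 8 HCC mice lay below all non-HCC mice. The exception was HCC mouse 2. Other liver miRNAs stayed in this total, with miR-192-5p at 1.37% to 7.20% of all miRNA UMIs in HCC mice, against 0.325% to 0.471% in non-HCC mice. The part of miR-122 or of other liver miRNAs in the lower family share was not tested.

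**Figure D2:**
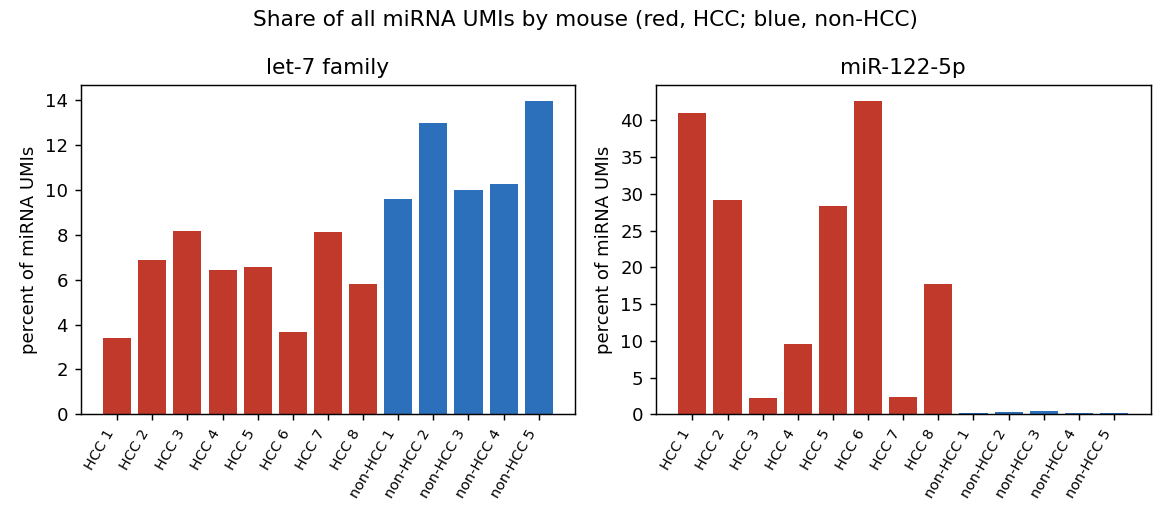
Percent of all miRNA UMIs in each of the 13 C3H mice for the sum of the 9 members (left) and for miR-122-5p (right), with HCC mice in red and non-HCC mice in blue. The family makes up 3.38% to 8.15% in HCC mice, against 9.59% to 14.0% in non-HCC mice, and miR-122-5p is above 2% in each HCC mouse and below 0.5% in each non-HCC mouse.

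Among single members, let-7b-5p, let-7c-5p, let-7e-5p, let-7g-5p and miR-98-5p had each HCC mouse below each non-HCC mouse in percent of miRNA UMIs. Of all 1452 miRNAs tested, 2.07% did so. let-7c-5p made up 0.490% to 1.43% of the UMIs in HCC mice, with a median of 0.779%, and 1.88%, 2.32%, 2.25%, 1.94% and 1.98% in non-HCC mice 1 to 5. miR-98-5p had 0.00804% to 0.0185% in HCC mice, with a median of 0.0149%, against 0.0229%, 0.0329%, 0.0251%, 0.0229% and 0.0439%. The lowest non-HCC mouse lay closest above the HCC mice in let-7e-5p, with 0.0124% against a highest HCC value of 0.0122%. The groups overlapped in let-7a-5p, let-7d-5p, let-7f-5p and let-7i-5p, where 6, 5, 7 and 6 of the 8 HCC mice lay below all non-HCC mice. In let-7d-5p, HCC mice 3 and 7, with 0.840% and 0.841%, even lay above all non-HCC mice.

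edgeR with the total of miRNA UMIs as the library scale called 5 of the 9 members lower in HCC mice, against 0 higher, where 2.20% of the 1452 miRNAs were called lower and 8.47% higher. The log2 fold change was -1.19 (SE 0.29) for let-7c-5p and -1.09 (SE 0.27) for miR-98-5p, with edgeR adjusted p of 0.0170 and 0.0171. let-7f-5p fell by 1.43 (SE 0.37), let-7g-5p by 0.91 (SE 0.25) and let-7b-5p by 0.76 (SE 0.23), with edgeR adjusted p of 0.0220, 0.0313 and 0.0479. The other 4 had fold changes of -0.90 (let-7i-5p), -0.68 (let-7e-5p), -0.60 (let-7a-5p) and -0.44 (let-7d-5p), with edgeR adjusted p of 0.0861, 0.0556, 0.256 and 0.511. The median over the 9 was -0.90, and over all miRNAs 0.37. With TMM factors, 4 members were called lower (let-7c-5p, let-7e-5p, let-7f-5p and miR-98-5p), and with the total without miR-122 as the scale only miR-98-5p (log2 fold change -0.75, edgeR adjusted p = 0.0415). Over all fits run, the adjusted p of let-7c-5p lay between 0.0100 and 1.00 and that of miR-98-5p between 0.0101 and 0.990. The count on the total scale rests on single mice and fell to 1, let-7c-5p, without non-HCC mouse 5. It was 2 without non-HCC mouse 2, 3 without HCC mouse 8 or without non-HCC mouse 3 or 4, and 2 with the similar HCC libraries summed. The fold changes moved less than the count, with a median over the 9 of -0.76 without non-HCC mouse 5 and -0.90 with libraries summed, and 7 of the 9 had an unadjusted p under 0.05 in both fits. Over all miRNAs the number called lower was 32 with all mice, 11 without non-HCC mouse 5 and 12 with libraries summed.

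let-7f-5p differed widely among the non-HCC mice. It had 29227, 138675, 34642, 40306 and 194308 UMIs in non-HCC mice 1 to 5, and 21790 to 43578 with a median of 25607 in HCC mice. Non-HCC mice 2 and 5 stood far above the other 3 of their group and above every HCC mouse, while the other 3 non-HCC mice lay within the HCC range. On the spike-in scale the log2 fold change of let-7f-5p was -0.92 with all mice and 0.07 without non-HCC mouse 5.

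In the C3H mice the red cell and the platelet and leukocyte miRNAs rose and fell with the family on both scales, and the liver miRNAs did not. In the F2 columns the blood cell lists did so on the spike-in scale, but weakly or in reverse in percent of miRNA UMIs. The 6 red cell miRNAs (miR-451a and miR-16-5p among them) summed to 6.69% to 39.5% of the UMIs in HCC mice, against 36.5% to 38.9% in non-HCC mice. In 6 of the 8 HCC mice the sum lay below that of every non-HCC mouse. miR-16-5p made up most of this sum, with 5.74% to 32.1% of the UMIs in HCC mice, against 26.1% to 28.7%. miR-451a had 0.424% to 4.24% in HCC mice, against 6.33% to 8.07%, without overlap, and the groups overlapped in the rest of the list. The 5 platelet and leukocyte miRNAs (with miR-223-3p and miR-142a-3p among them) summed to 1.23% to 3.25% and 2.75% to 4.90%. The 5 liver miRNAs summed to 4.14% to 51.8% in HCC mice, against 0.908% to 1.15% in non-HCC mice, without overlap. None of these miRNAs was listed at 0 in any mouse. On the spike-in scale the family sum followed the red cell sum over the 13 mice (Spearman's rho 0.945) and the platelet and leukocyte sum (rho 0.874) more closely than the liver sum (rho 0.0879). Over the 53 F2 columns the rho on the spike-in scale was 0.803, 0.870 and 0.536 for these 3 lists, and in percent of miRNA UMIs it was -0.392 for red cells, 0.218 for platelets and leukocytes and -0.270 for liver, where the C3H mice had 0.698, 0.692 and -0.874. Points on the spike-in scale share the spike-in count of each library, and the part of blood cell RNA in the family level was not tested. In plasma, more RNA from one tissue and less RNA from the others cannot be told apart by shares.

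By group median, the order of the members within the family sum was the same in HCC and non-HCC mice except for let-7b-5p and let-7c-5p. Their medians were 19.3% and 14.7% in HCC mice, and 18.3% and 18.9% in non-HCC mice. Single mice departed from this order. let-7a-5p exceeded let-7c-5p in HCC mice 3, 7 and 8, and let-7f-5p, with 7.71% and 9.96%, exceeded let-7a-5p in non-HCC mice 2 and 5. let-7i-5p took 30.01% to 42.9% of the sum in HCC mice, with a median of 36.4%, and 34.5%, 40.9%, 32.5%, 36.3% and 41.3% in non-HCC mice 1 to 5. let-7b-5p took 18.6% ± 2.46 (SD, n = 8) of the sum with HCC, against 16.99% ± 3.42 (SD, n = 5) without it. let-7g-5p was the steadiest of the larger members, with 7.53% ± 0.552 (SD, n = 8) and 7.54% ± 0.309 (SD, n = 5). For none of these did the groups differ beyond the spread between mice, with exact permutation p of 0.764, 0.356 and 0.984 (two-sided, over all 1287 assignments of the mice).

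**Figure D3:**
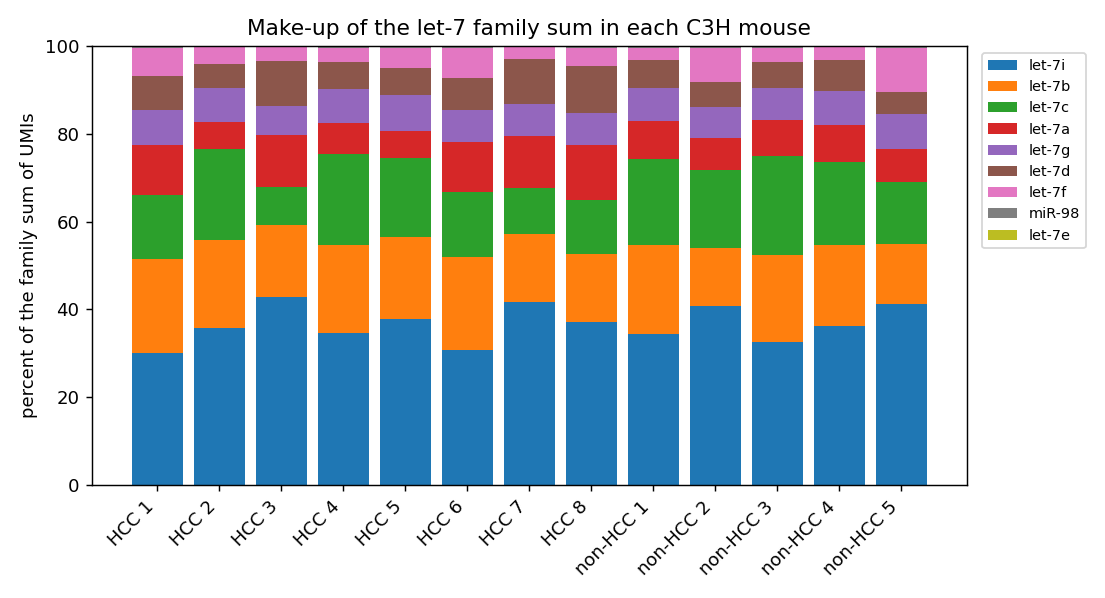
Make-up of the let-7 family sum in each C3H mouse, as stacked bars of the percent of the family sum of UMIs that each of the 9 members took. let-7i takes the largest part in each mouse, between 30.01% and 42.9%, and let-7c is narrowest and let-7a and let-7d are wide in HCC mice 3, 7 and 8.

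The exact permutation test was run for the shares of all 9 members, and its p-values are not adjusted for the 9 tests. Only miR-98-5p had a p under 0.05, with 0.228% ± 0.0122 (SD, n = 8) of the sum in HCC mice against 0.256% ± 0.0346 (SD, n = 5), a difference of -0.0285 percentage points (exact permutation p = 0.0186). Its HCC mice ran from 0.204% over a median of 0.229% to 0.243%, and the non-HCC mice had 0.239%, 0.253%, 0.251%, 0.223% and 0.314%. The groups overlapped, and without non-HCC mouse 5, the highest, the exact permutation p was 0.0949. With the similar HCC libraries summed it was 0.0556. let-7d-5p took 7.96% ± 2.15 (SD, n = 8) and 6.02% ± 0.712 (SD, n = 5) of the sum (exact permutation p = 0.0785), and let-7c-5p 15.1% ± 4.55 (SD, n = 8) and 18.6% ± 3.01 (SD, n = 5) (exact permutation p = 0.156). let-7a-5p took 9.80% ± 2.89 (SD, n = 8) and 8.00% ± 0.606 (SD, n = 5), let-7f-5p 4.35% ± 1.51 (SD, n = 8) and 5.33% ± 3.30 (SD, n = 5), and let-7e-5p 0.176% ± 0.0876 (SD, n = 8) and 0.135% ± 0.0218 (SD, n = 5), with exact permutation p of 0.191, 0.487 and 0.357.

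The HCC mice fell apart among themselves in these shares. let-7a-5p took 11.4% to 12.5% of the sum in HCC mice 1, 3, 6, 7 and 8 and 6.00% to 7.05% in HCC mice 2, 4 and 5, with the 5 non-HCC mice at 7.25% to 8.60% between them. let-7c-5p took 8.64% in HCC mouse 3, 10.5% in mouse 7 and 12.2% in mouse 8, below all non-HCC mice. The same 3 mice had the largest shares of let-7d-5p, with 10.3%, 10.4% and 10.6%. let-7e-5p took 0.287% and 0.331% in HCC mice 1 and 6, and 0.101% to 0.190% in the other 11 mice. Since mice 1 and 6 and mice 3 and 7 are among the similar library pairs, each pattern may rest on fewer than its number of mice.

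The 3p strands of the let-7 hairpins were followed to see whether both arms moved together. The table holds 11 such entries, since the 3p strands of let-7a-1 and let-7c-2 are identical and share 1 entry. In edgeR on the spike-in scale 0 of 11 were called in either direction. Their median log2 fold change of 0.75 was close to the 0.78 over all 1452 miRNAs tested. DESeq2 with spike-in size factors called let-7f-2-3p (adjusted p = 0.0153) and let-7e-3p (log2 fold change 1.65, adjusted p = 0.0497), both named after their values were seen. That fit called 181 of all 1452 miRNAs higher. let-7d-3p was the most abundant with 2506 to 7690 UMIs in HCC mice, against 4292 to 5640 in non-HCC mice (log2 fold change 0.70, SE 0.53, edgeR adjusted p = 0.570). let-7b-3p (1473 to 4807 UMIs over the 13 mice) and let-7i-3p (143 to 879) followed, with log2 fold changes of -0.24 (SE 0.54) and -0.09 (SE 0.61). The smallest p was that of let-7f-2-3p, singled out after its values were seen, with 34 to 147 UMIs and a median of 76.5 in HCC mice, against 33, 39, 27, 39 and 43 UMIs in the 5 non-HCC animals. Its log2 fold change was 2.24 (SE 0.78, edgeR adjusted p = 0.0835). With the total of miRNA UMIs as scale it was 1.28 (SE 0.34) and passed the threshold (edgeR adjusted p = 0.0260), and over all fits run its adjusted p lay between 0.0118 and 0.401. let-7f-5p, whose molecules come in part from the opposite strand of the same hairpin, was lower in the fit on total UMIs.

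Both arms of a hairpin come from 1 precursor, so the 3p strand as a percent of both arms is free of any library scale. The hairpin of let-7d is shown because its 3p strand reached the largest part in the C3H mice among the 6 hairpins whose arms each have an entry of their own. It is read 5′ to 3′ from the same source, with the 5p and 3p strands in capitals:
Mirlet7d: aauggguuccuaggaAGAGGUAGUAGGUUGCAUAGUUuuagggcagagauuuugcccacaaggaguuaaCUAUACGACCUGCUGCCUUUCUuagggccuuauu

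let-7d-3p made up 22.4% and 22.3% of both arms in HCC mice 1 and 6, 10.8% and 10.6% in HCC mice 4 and 8, and 4.27% to 6.21% in the other 4 HCC mice. Non-HCC mice 1 to 5 had 5.92%, 4.25%, 8.51%, 5.35% and 4.24%. Of the 8 HCC mice, 4 thus exceeded the whole non-HCC group and the other 4 lay within its range (exact permutation p = 0.148). For let-7e the 3p strand made up 2.39% to 7.05% in HCC mice, with a median of 4.03%, and 2.44%, 1.64%, 1.45%, 2.33% and 0.592% in non-HCC mice, and 7 of the 8 HCC values exceeded all non-HCC values (exact permutation p = 0.00699). For let-7g it made up 0.0593% to 0.163% in HCC mice, with a median of 0.0994%, and 0.0561%, 0.0532%, 0.0333%, 0.0428% and 0.0427% in non-HCC mice, without overlap (exact permutation p = 0.00466). These percents rest on few molecules, 13 to 90 UMIs of let-7e-3p and 26 to 85 of let-7g-3p per mouse, and the table cannot hold a value from 1 to 9.

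The same percent was 3.53% to 9.38% in HCC mice, against 2.65% to 5.58% in non-HCC mice for miR-98 (exact permutation p = 0.0381), 0.113% to 0.190% and 0.105% to 0.149% for let-7i (exact permutation p = 0.0536), and 1.08% to 2.91% and 1.67% to 1.98% for let-7b (exact permutation p = 0.484). The mean was higher in HCC mice in all 6 hairpins. Hairpins outside the family were not examined, so whether this is particular to let-7 was not tested. These 6 tests were added after the values were seen and are not adjusted for their number. With the similar HCC libraries summed the exact permutation p was 0.0159 for let-7e, 0.00794 for let-7g, 0.0397 for let-7i and 0.0556 for miR-98. With 1 mouse left out at a time it was at most 0.0182 for let-7e and 0.0101 for let-7g, while for miR-98 it ran from 0.0189 to 0.0949 and was above 0.05 without HCC mouse 3, 6 or 8 or without non-HCC mouse 2, 3, 4 or 5.

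The entries let-7j and let-7k also carry let-7 names and are counted apart from the family. Their sequences are shown because each differs from a member by 1 base over the stretch they share:
mmu-let-7j: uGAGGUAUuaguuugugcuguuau
mmu-let-7k: uGAGGUAGgagguugugug

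let-7j differed from let-7i-5p by G8U over 22 bases, which changes the seed, and let-7k from let-7b-5p by U9G over 19 bases, which does not. let-7j had 0.0899% to 0.153% of the UMIs of let-7i-5p in the C3H mice, and let-7k 0.145% to 0.242% of those of let-7b-5p. Their UMIs rose and fell with those members over the 13 mice (Spearman's rho 0.901 and 0.863 on log2 UMIs), and neither was called in edgeR on the spike-in scale (log2 fold changes -0.26 and -0.13). In the F2 libraries the same ratios were 0.479% to 4.43% and 0.512% to 3.65%, above the C3H range in each column. Whether these entries are separate molecules or miscalled bases of let-7i-5p and let-7b-5p was not tested.

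Some let-7 hairpins are encoded with other miRNAs: let-7c-1 with miR-99a and miR-125b, let-7e with miR-99b and miR-125a, and let-7a-2 with miR-100 and miR-125b. Of these 5 cluster partners, 0 were called by edgeR on the mean of both spike-ins, with a median log2 fold change of 1.57 beside 0.78 over all miRNAs tested. The most abundant were miR-125b-5p (6837 to 42595 UMIs, log2 fold change 0.73, SE 0.69), miR-125a-5p (6793 to 49644 UMIs, 1.57, SE 0.65) and miR-99a-5p (2529 to 19793 UMIs, 2.02, SE 0.76), with edgeR adjusted p of 0.669, 0.165 and 0.118. DESeq2 with spike-in size factors called 3 of the 5 higher in HCC mice, where it called 181 of all 1452 miRNAs higher. Its adjusted p was 0.0305 for miR-125a-5p, 0.0207 for miR-99a-5p and 0.00871 for miR-99b-5p. edgeR with UniSP4 alone called miR-99b-5p (adjusted p = 0.0456), where 130 of the 1452 were higher. With the total of miRNA UMIs as scale, miR-99b-5p, named after its values were seen, passed the threshold (log2 fold change 1.25, SE 0.38, edgeR adjusted p = 0.0467), and over all fits run its adjusted p lay between 0.00541 and 0.360. In that fit let-7e-5p, from the same cluster, had -0.68, and miR-125b-5p had -0.21.

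Outside the let-7 lists and cluster partners, 313 miRNAs with a median of at least 100 UMIs were ranked by how closely their percent of miRNA UMIs followed that of the family sum over the 13 C3H mice. The 5 closest were miR-15a-5p and miR-15b-5p (Spearman's rho 0.951 each), miR-142a-3p and miR-421-3p (0.945 each) and miR-195a-5p (0.940), where the median of all 313 was 0.0549. Over the 53 F2 columns the same 5 had rho of -0.0479, -0.200, -0.268, 0.414 and 0.185 with the family sum. The rho over C3H mice covers both groups, so the difference between them enters it.

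The F2 libraries were shallower. Their 53 columns held 205194 to 3020311 miRNA UMIs, with a median of 846338, and the 9 members took 5.93% to 25.4% of them, with a median of 14.2%. let-7c-5p led with a median of 36.04% of the family sum (12.2% to 44.8%), ahead of let-7b-5p with 31.8% (27.96% to 50.96%), and let-7c-5p exceeded let-7b-5p in 38 of 53 columns. let-7i-5p took 11.9% (5.53% to 19.4%) and let-7a-5p 11.5% (6.27% to 20.2%), and these could not be put in order, since let-7a-5p was the higher in 26 of 53 columns. let-7f-5p (median 3.12%), let-7g-5p (2.90%), let-7d-5p (2.40%), let-7e-5p (0.833%) and miR-98-5p (0.397%) followed.

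The make-up of the sum therefore differed between the cohorts for several members. let-7b-5p and let-7e-5p took more of the sum in each of the 53 F2 columns than in any C3H mouse, and let-7g-5p and let-7i-5p less in each. For let-7i-5p the highest F2 column had 19.4% and the lowest C3H mouse 30.01%. let-7c-5p lay above the C3H range in 45 columns, miR-98-5p in 48 and let-7a-5p in 20, and let-7d-5p lay below it in 50 and let-7f-5p in 11. let-7e-5p exceeded miR-98-5p in 53 of 53 F2 columns and in 2 of 13 C3H mice. The cohorts differ in strain, sex, tumor state, time of bleeding, bleeding site and depth, and may differ in radiation. These cannot be told apart, and no test was made between the cohorts, since the F2 columns are repeated samples of 15 mice that could not be identified.

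**Figure D4:**
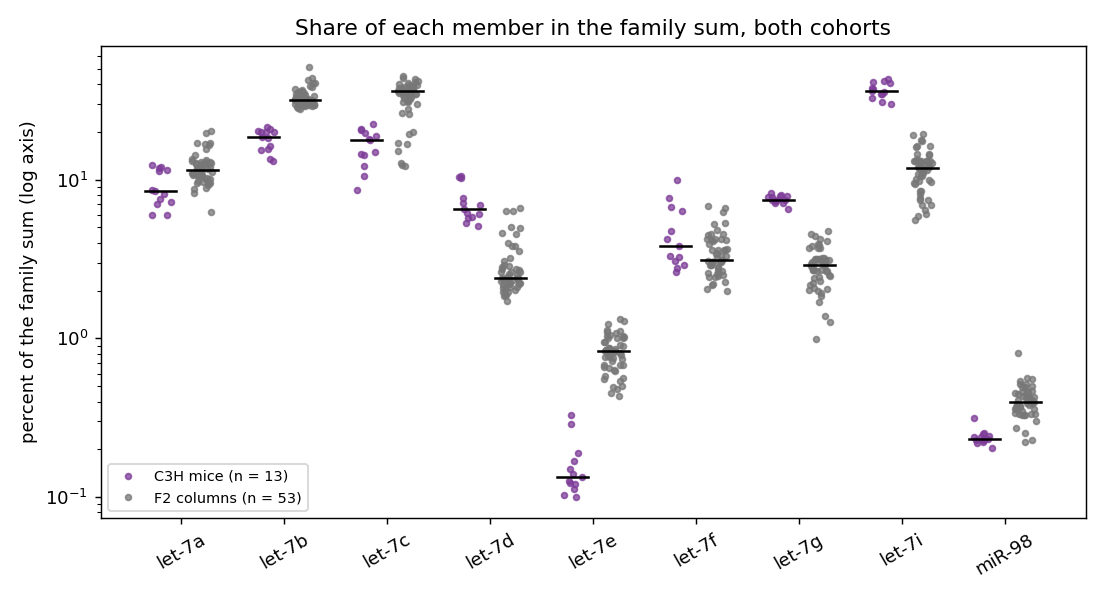
Percent of the family sum on a log axis for each member in the 13 C3H mice and in the 53 F2 columns, with a line at each median. In let-7b and let-7e all F2 columns lie above the C3H mice, in let-7g and let-7i all lie below, and let-7f overlaps most, with 42 of 53 columns within the C3H range.

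Over the 53 F2 columns the members rose and fell together on the spike-in scale. Spearman's rho over the 36 pairs of members lay between 0.840 (let-7c-5p with let-7d-5p) and 0.973 (let-7b-5p with miR-98-5p), with a median of 0.923. Both values of a pair share the spike-in count of their column, and columns share mice, and the median over all pairs of the 166 miRNAs with a median of at least 100 UMIs was 0.715 on the same scale. In percent of miRNA UMIs the median over the family was 0.649, beside 0.120 over the 166 miRNAs, and the pairs ran from 0.0851 (let-7d-5p with let-7i-5p) to 0.937 (let-7b-5p with let-7c-5p). let-7b-5p, let-7c-5p, let-7e-5p and miR-98-5p were the tightest set on this scale, with rho of 0.861 to 0.937 between them, while let-7i-5p had a median of 0.444 with the other 8. In the 13 C3H mice the median over the 36 pairs was 0.907 on the spike-in scale and 0.690 in percent.

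Relative to the family itself, as log2 ratio to the geometric mean of the 9 members, the pairs spread in both directions, with a median of -0.147, which a ratio to the shared mean pulls below 0. The lowest pairs were let-7e-5p with let-7g-5p (-0.707) and let-7c-5p with let-7d-5p (-0.693), and the highest let-7e-5p with miR-98-5p (0.542) and let-7a-5p with let-7d-5p (0.505). let-7a-5p and let-7d-5p, which share the chromosome 13 cluster, were also positive in the C3H mice (0.731). let-7f-5p, encoded in part in the same cluster, was negative with both. With let-7a-5p it had -0.155 in F2 columns and -0.291 in C3H mice, and with let-7d-5p -0.288 and -0.654. let-7f-5p with miR-98-5p, which share an intron of Huwe1 in part, had -0.444 in F2 columns and 0.126 in C3H mice. let-7b-5p and let-7c-5p, which share a cluster and differ by 1 base, had 0.160 in F2 columns and 0.736 in C3H mice. let-7e-5p with miR-98-5p had -0.489 in C3H mice, opposite to the F2 columns, and 25 of the 36 pairs had the same sign in both cohorts. The 4 pairs that are 1 base apart had a median of -0.251 and the 11 pairs that are 4 or more bases apart -0.237.

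**Figure D5:**
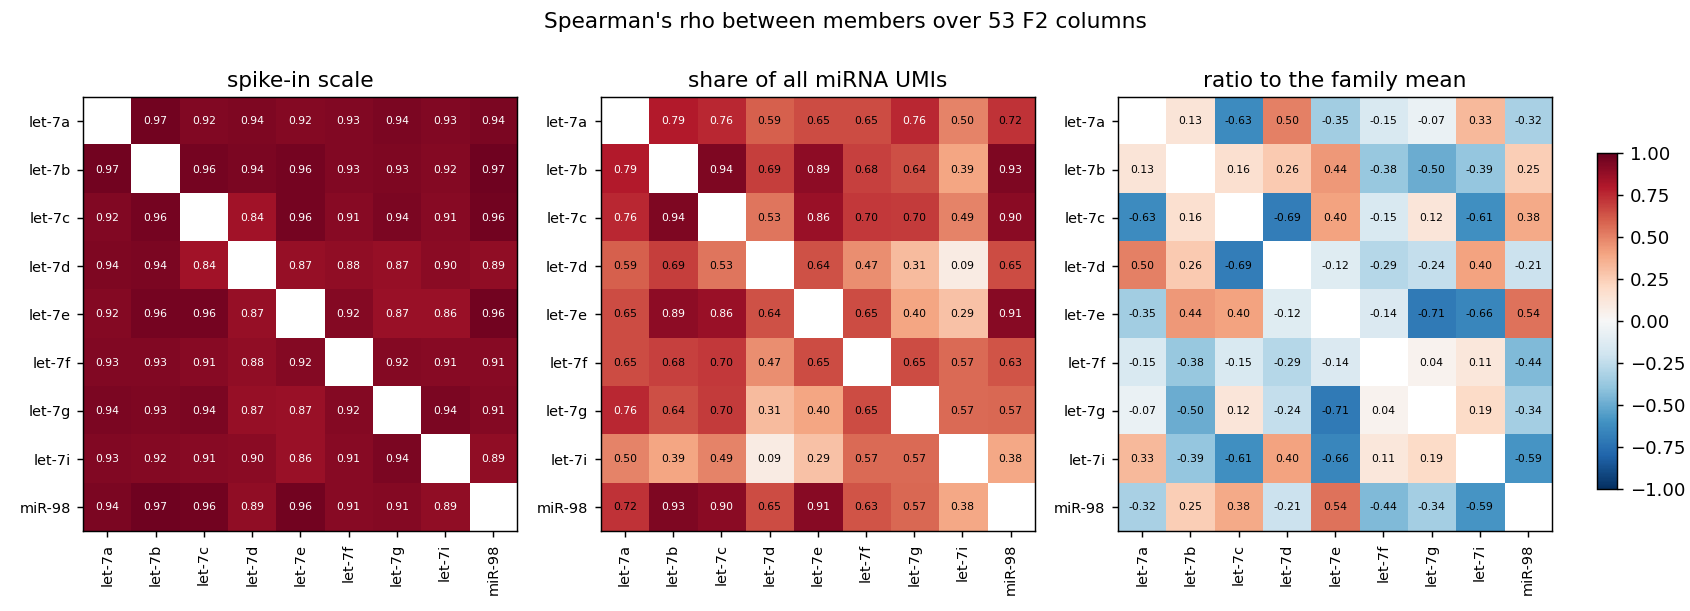
Spearman's rho between the 9 members over the 53 F2 columns, on the spike-in scale (left), in percent of miRNA UMIs (middle) and as log2 ratio to the geometric mean of the members (right), with color from -1 (blue) to 1 (red). The pairs are at 0.840 or above on the spike-in scale, between 0.0851 and 0.937 in percent, and between -0.707 and 0.542 as ratios within the family.

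Some shares moved with the size of the family or the depth of the F2 columns, and others did not. With the percent of miRNA UMIs that the family took, the share of let-7c-5p had a rho of 0.789, those of let-7d-5p, let-7i-5p and let-7a-5p had -0.844, -0.742 and -0.524, and the other 5 lay between -0.207 and 0.314. let-7c-5p is itself a large part of the family sum, so part of its rho is built in. Shares of a sum cannot all rise together, so part of the negative rho of let-7d-5p, let-7i-5p and let-7a-5p is built in as well. In the 3 columns with least let-7c-5p, at 12.2%, 12.3% and 12.8% of the sum, the family held 29760, 39283 and 42039 UMIs, and let-7d-5p took 6.35%, 6.35% and 6.63%, against a median of 2.40%. The shares of miR-98-5p, let-7b-5p and let-7e-5p fell with the number of miRNA UMIs in the column (rho -0.622, -0.561 and -0.527), and that of let-7g-5p rose (0.502), while the other 5 had rho between -0.190 and 0.268. Depth moves with these shares, and its part in them was not tested.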

How the data were processed

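Plasma RNA (50 µl, UniSP2 and UniSP4 added) was built into QIAseq miRNA libraries and sequenced on a NextSeq500. The authors aligned reads to GRCm38 (Bowtie2 and FastQC are in the submitters' processing notes), annotated them by miRBase 20 and deposited raw UMI counts, not normalized. C3H columns were assigned by the mouse names in the labels. The 53 F2 columns match no label and were used only as libraries of that cohort, and 0 columns of values were left out. C3H totals ran from 9513136 to 14247488 UMIs.

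edgeR 4.0.16 (R 4.3.3) tested every miRNA that reached 5 UMIs in 5 or more mice. Both spike-ins' mean count set the scale, the standard error is the log2 fold change over the square root of F, and calls needed an adjusted p under 0.05. This step was tested on simulated data. Alternatives were other scales and filters, limma 3.58.1, DESeq2 1.42.0, a replicate block and each mouse left out. Shares and correlations came from Python 3.11.15 with pandas 2.3.3. Shares and arm percents were compared by exact permutation over mice, two-sided. Members and lists were chosen with earlier results of these data known. Named were all members, the 3 most abundant or any called 3p strands and cluster partners, and the 5 miRNAs closest to the family.

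Marker lists were, for red cells, miR-16-5p, miR-451a, miR-363-3p, miR-486a-5p and both arms of miR-144, for platelets and leukocytes, miR-126a-3p, miR-150-5p, miR-223-3p and both arms of miR-142a, for liver, miR-101b-3p, miR-192-5p, miR-194-5p and both arms of miR-122, and for muscle, miR-499-5p, miR-208b-3p, miR-206-3p, miR-133a-3p and miR-1a-3p. The muscle list summed to 0.0383% to 1.47% of the UMIs with HCC, against 0.0737% to 0.368% without. Its rho with the family sum was 0.637 on the spike-in scale and 0.0879 in percent over the C3H mice, and 0.292 and -0.0231 over the F2 columns. Counting error bears most on the 3p strands with fewer than 100 UMIs.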

Additional observations from a re-analysis of the deposited data

How the results depend on the processing

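The result on the members depends on the library scale. On the spike-in scale 0 members were called with edgeR, limma, DESeq2, either spike-in alone, other filters or any mouse left out. The count of members lower in HCC mice was 4 with TMM factors, 5 with the total of miRNA UMIs, 6 with DESeq2's own size factors and 1 with the total without miR-122, while 0 were higher in each. On the total scale it ran from 1 to 6 with 1 mouse left out and was 2 with the similar HCC libraries summed. The totals without miR-122, the summed pairs and the left-out mice on the total scale were chosen after seeing the data. Over all miRNAs, 109 were higher and 0 lower with edgeR on the spike-in scale. Higher calls were 44 with limma, 181 with DESeq2 on spike-ins, 173 with its own size factors, 167 with the total without miR-122 and 44 to 157 with 1 mouse left out (44 to 65 without HCC mouse 2 or without non-HCC mouse 1, 2, 3 or 4). Lower calls were 1 with UniSP4 alone, 2 with DESeq2 on spike-ins, 32 with TMM, 32 with the total, 49 with DESeq2's own size factors and 10 with the total without miR-122.

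The log2 fold change of let-7b-5p, 0.01 as reported, was -0.80 with TMM, -0.051 with UniSP4, -0.76 with the total, -0.44 with limma, -0.76 with DESeq2's own size factors, -0.40 with the total without miR-122 and -0.10 with pairs summed. That of miR-125b-5p turned to -0.32 with TMM, -0.21 with the total and -0.26 with DESeq2's own size factors. With 1 mouse left out, fold changes ran from -0.50 to 0.092 (let-7a-5p), -0.37 to 0.30 (let-7b-5p), -0.69 to 0.028 (let-7c-5p), -0.34 to 0.26 (let-7d-5p), -0.26 to 0.28 (let-7e-5p), -1.34 to 0.066 (let-7f-5p), -0.59 to 0.23 (let-7g-5p), -0.70 to 0.15 (let-7i-5p), -0.85 to 0.097 (miR-98-5p), -0.44 to 0.040 (let-7b-3p) and -0.39 to 0.32 (let-7i-3p).

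Replicate numbers in the labels are running numbers and did not pair the mice (correlations of deviations -0.13 to 0.07). With the replicate block, 0 members were called and 145 miRNAs were higher. Under the block the fold change was -0.0048 for let-7b-5p, 0.023 for let-7d-5p, 0.032 for let-7e-5p and 0.072 for let-7i-3p. The number of shares with an exact permutation p under 0.05 was 1 as reported and 0 under the block, where 5 pairs cannot go below 0.0625. It was 0 without let-7i-5p in the sum, 0 with pairs summed, and 0 to 2 with 1 mouse left out (0 without non-HCC mouse 5 and 2, with let-7d-5p added, without HCC mouse 2). The difference in share of let-7g-5p was 0.132 percentage points under the block, 0.0106 with pairs summed and -0.119 to 0.138 with 1 mouse left out. That of let-7f-5p ran from -1.62 to 0.170 and that of let-7i-5p from -1.89 to 0.298. The median rho of the members over F2 columns, 0.923 on the spike-in scale, was 0.649 in percent and -0.147 as a ratio within the family. The cause of these changes was not tested. Of the values recomputed for single miRNAs or shares, 554 kept their direction and their side of the threshold, 54 changed direction, 41 gained a call and 12 lost one. Among those for the comparisons, 119 stayed, 14 counts rose and 16 fell by more than 1.5 times, 1 moved and 1 changed sign. Gained calls include let-7f-2-3p in 9 alternatives, miR-99b-5p in 8, miR-99a-5p in 3 and miR-125a-5p in 1. Under the replicate block let-7f-2-3p, miR-99a-5p and miR-99b-5p were called (edgeR adjusted p = 0.0151, 0.0499 and 0.0439).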

Other observations

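Over the 53 F2 columns the 3p strand made up 5.23% to 21.5% of both arms of let-7d, with a median of 11.7%, and 8.59% to 31.5% of those of miR-98, with a median of 15.2%. For let-7b the median was 4.06% and for let-7e 0.719%. let-7g-3p was listed at 0 in 48 of the 53 columns, where 0 stands for fewer than 10 UMIs.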
